A study of Mus musculus with 9 samples.

Results

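Of 9 whole-kidney RNA libraries from mice, 6 came from mutants of Ybx1, and these 6 fell into 2 sets of 3 by how much Ucp1 RNA they held. The libraries with Ucp1 at 10 CPM or more (CPM are reads of a gene scaled to a common library size) were ΔPod 1, K2A 1 and K2A 2, and are called Ucp1-high. Those with Ucp1 below 1 CPM were ΔPod 2, ΔPod 3 and K2A 3, and are called Ucp1-low. The members of both sets were chosen by these measured Ucp1 values and not by a label, so every comparison between the sets is a description without a test. The question it addresses is which tissues other than kidney parenchyma were included with the kidney piece.

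The study compared podocyte-specific changes of Ybx1, the gene of the cold shock Y-box binding protein, with wild-type kidney. ΔPod mice lack Ybx1 in podocytes, whose foot processes cover the glomerular capillaries. K2A mice carry in podocytes a Ybx1 that cannot be secreted, because both lysines whose acetylation secretion needs are replaced (K299A and K302A, exon 7). All groups had a C57Bl/6N background, were 16 weeks old and were given no treatment in the labels, and each was sequenced as 3 libraries of polyadenylated RNA. The promoter that restricts the alleles to podocytes is not given in the sources used here, and nothing in the labels ties a library to its own animal, so p-values measure the spread between samples, which may be technical.

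Brown adipocytes burn fatty acids for heat through UCP1, an uncoupling protein of the inner mitochondrial membrane, and in the mouse they lie around the renal hilum within the perirenal fat. White adipocytes store triglyceride around a single droplet and secrete adipsin, adiponectin and resistin. The renal pelvis, which opens at the same hilum, is lined by urothelium, whose surface is plated with uroplakins. A dissected kidney can carry some of each, and in bulk RNA fewer cells of a type and less RNA per cell cannot be told apart.

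The upstream sequences of a gene for each of the 3 tissues are shown, because each is a defining gene of its tissue (brown fat, fat in general and urothelium). Each is the 250 bases before the RefSeq start on the plus strand of GRCm38.p6, for Ucp1 chr8:83290098-83290347, for Adipoq chr16:23146286-23146535 and for Upk3a chr15:85016891-85017140. Capitals mark matches on either strand to AGGTCA, a half-site of nuclear receptors, to CCAAT, or to TATAAA, and these motifs did not overlap.
Ucp1: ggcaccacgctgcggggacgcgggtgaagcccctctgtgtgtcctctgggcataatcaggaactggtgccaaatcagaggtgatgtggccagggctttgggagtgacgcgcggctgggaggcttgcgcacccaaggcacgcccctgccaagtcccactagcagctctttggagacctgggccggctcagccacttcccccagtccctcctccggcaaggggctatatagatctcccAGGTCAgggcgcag
Adipoq: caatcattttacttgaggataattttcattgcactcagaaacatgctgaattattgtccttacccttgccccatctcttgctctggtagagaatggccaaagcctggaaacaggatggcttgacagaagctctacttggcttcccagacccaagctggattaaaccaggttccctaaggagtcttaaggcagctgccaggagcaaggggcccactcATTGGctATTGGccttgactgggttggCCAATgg
Upk3a: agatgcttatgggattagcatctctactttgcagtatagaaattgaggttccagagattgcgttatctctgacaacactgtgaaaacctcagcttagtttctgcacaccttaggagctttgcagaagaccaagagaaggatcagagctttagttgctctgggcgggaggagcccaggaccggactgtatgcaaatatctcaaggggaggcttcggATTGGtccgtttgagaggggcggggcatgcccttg
The Ucp1 window held 1 AGGTCA match, the Adipoq window 3 CCAAT matches and the Upk3a window 1 CCAAT match, and TATAAA was in none of the 3. Of 32817 windows of the same length, 14.03% held AGGTCA, 33.83% CCAAT and 12.37% TATAAA. A match is a description of the letters only.

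Total counts ran from 30777142 to 46882253 per library. Ribosomal protein genes took 7.23, 3.45 and 3.51% of the counts in ΔPod 1, K2A 1 and K2A 2, and 3.86, 1.01 and 0.900% in ΔPod 2, ΔPod 3 and K2A 3, against 0.979 to 2.18% in WT. The Ucp1-high libraries were therefore also libraries rich in short ribosomal transcripts, but the Ucp1-low library ΔPod 2 lay within their range. Ybx1, which most kidney cells transcribe, was measured at 1167, 1078 and 1152 CPM in the Ucp1-high libraries, at 881, 605 and 554 CPM in the Ucp1-low libraries and at 1190, 1585 and 1185 CPM in WT.

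Ucp1 (chromosome 8, 83290352 to 83298452 in mm10) was at 28.2 CPM in ΔPod 1, 20.4 in K2A 1 and 109 in K2A 2. In ΔPod 2 and ΔPod 3 it was at 0.141 CPM in both, from 6 and 7 counts, and in K2A 3 and the 3 WT libraries it had no count, which allows at most 0.0859 CPM (3 counts) in these libraries. Between the thresholds of 1 and 10 CPM no library was found. The brown fat genes Cidea, Cox8b, Dio2 and Adrb3 were also higher in every Ucp1-high library. Cidea, a lipid droplet protein of brown adipocytes (chromosome 18, 67343604 to 67367785), was at 6.00, 8.12 and 39.4 CPM in ΔPod 1, K2A 1 and K2A 2 and at 0.188, 0.262 and 0.0484 CPM in ΔPod 2, ΔPod 3 and K2A 3. WT libraries held 0.0573 to 0.173 CPM of it.

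Cox8b, the muscle and brown fat isoform of a cytochrome c oxidase subunit, was at 30.3, 16.7 and 57.0 CPM in the Ucp1-high libraries. It was not absent from the others, with 4.88 CPM in ΔPod 2, 0.605 in ΔPod 3 and 3.97 in K2A 3, against at most 0.0554 CPM in WT. Dio2, the deiodinase that activates thyroid hormone in brown fat, was at 1.95, 1.33 and 4.12 CPM in the Ucp1-high libraries and at 0.258, 0.181 and 0.194 CPM in ΔPod 2, ΔPod 3 and K2A 3. Elovl3, a fatty acid elongase of brown fat, was too low to be tested, with 0.109, 0.620 and 2.37 CPM in ΔPod 1, K2A 1 and K2A 2 and no count elsewhere. Zic1 and Lhx8, transcription factors of classical brown fat, had no count in any library.

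A gene was taken as past the fold when its lowest value in one set was at least 2 times its highest value in the other. Of 18067 genes tested, 106 were past the fold with higher values in the Ucp1-high set, 0.587% of the genes, and 49 with lower values, 0.271%. With library size alone as the scaling the split was 76 higher and 98 lower. Without any fold, 17.3% of genes were higher and 19.6% lower in all 3 Ucp1-high libraries. Of the 18 brown adipocyte genes 12 could be tested and 5 were past the fold, Ucp1, Cidea, Cox8b, Dio2 and the beta-3 adrenergic receptor gene Adrb3. The rest included genes that kidney itself transcribes: Ppargc1a, a coactivator of mitochondrial biogenesis, was at 24.8 to 28.1 CPM in the Ucp1-high and 30.9 to 104 CPM in the Ucp1-low libraries. Prdm16, a transcription factor of the brown fat lineage, was at 2.28, 2.32 and 2.61 CPM in ΔPod 1, K2A 1 and K2A 2 and at 4.59, 21.1 and 23.1 CPM in ΔPod 2, ΔPod 3 and K2A 3, below rather than above. Acot11, an acyl-CoA thioesterase, was at 3.83, 6.198 and 7.29 CPM in the former and 6.80, 30.03 and 57.5 CPM in the latter. The median difference of the 12, Ucp1-high minus Ucp1-low on the log2 scale, was 1.61, against 0.03 for all genes. Those that passed the filter on low counts did so in part through the libraries where they were high, so these counts and medians describe the lists and do not support them.

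**Figure D1:**
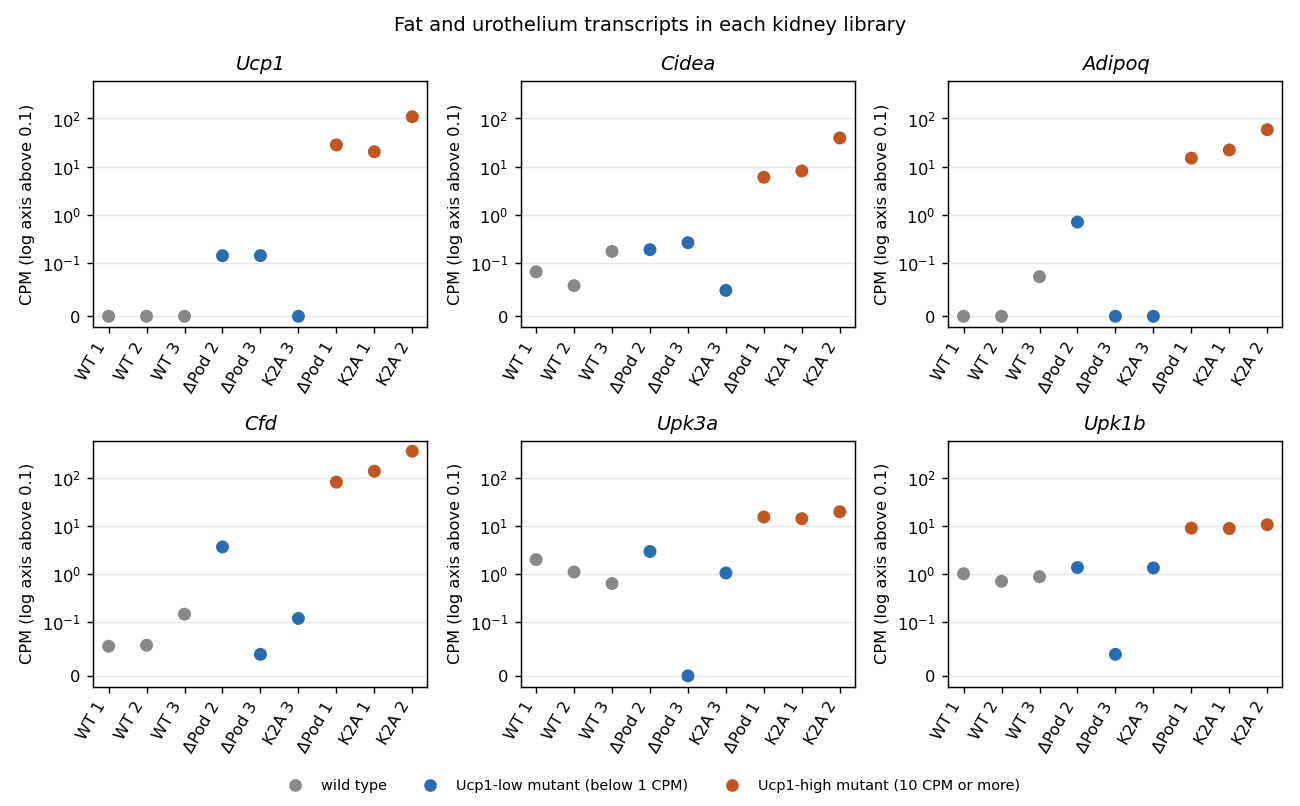
CPM of Ucp1, Cidea, Adipoq, Cfd, Upk3a and Upk1b in each of 9 libraries (points; log axis above 0.1, linear below), with wild type in grey, Ucp1-low mutants in blue and Ucp1-high mutants in orange. The Ucp1-high libraries lie above all others for each gene, and ΔPod 2 holds the most Cfd (3.70 CPM) of the Ucp1-low ones.

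Genes of adipocytes in general followed. Adipoq, the gene of the hormone adiponectin (chromosome 16, 23146536 to 23158028), was at 14.97, 22.2 and 58.5 CPM in ΔPod 1, K2A 1 and K2A 2. It was at 0.703 CPM in ΔPod 2 and had no count in ΔPod 3 and K2A 3. Cfd, which encodes adipsin, a complement protease secreted by fat (chromosome 10, 79890853 to 79892655), was at 82.2, 139 and 361 CPM in the Ucp1-high libraries. In the Ucp1-low libraries it was at 3.70, 0.0403 and 0.121 CPM, and in WT at 0.0554 to 0.148 CPM. ΔPod 2 therefore held more Cfd than any WT library, so that a low Ucp1 value did not mean that every fat transcript was as low as in WT.

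Retn, the gene of resistin, was at 9.08, 13.9 and 38.4 CPM in ΔPod 1, K2A 1 and K2A 2 and at 0.703, 0.0202 and 0 CPM in ΔPod 2, ΔPod 3 and K2A 3. Plin1, the perilipin that coats the droplet of fat cells, was at 2.82, 6.601 and 20.5 CPM in the former and at 0.305, 0.0605 and 0.194 CPM in the latter. Both had their highest value in K2A 2 and their lowest Ucp1-high value in ΔPod 1. Adig, a small membrane protein of adipocytes, was at 9.26, 8.83 and 19.6 CPM in the Ucp1-high libraries and at most 0.141 CPM in the Ucp1-low ones. Mrap, an accessory protein of melanocortin receptors that adipocytes make, was at 3.73, 3.04 and 8.12 CPM against at most 0.145 CPM. Adig and Mrap were not raised in ΔPod 2, where Adig was at 0.141 and Mrap at 0.117 CPM, values within the WT range of 0.0247 to 0.172 and 0.0277 to 0.143 CPM.

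Of 30 general adipocyte genes 26 could be tested, 8 were past the fold with higher values and none with lower values. The 8 were Adipoq, Cfd, Retn, Plin1, Adig, the droplet protein gene Cidec, the lipogenic regulator gene Thrsp and the carbonic anhydrase gene Car3. Their share was above the 0.587% of all genes, whereas the median difference of the list was 0.49 on the log2 scale, and several of its genes were abundant in WT kidney. Lpl, the lipoprotein lipase, was at 200 to 293 CPM in the Ucp1-high, 311 to 438 CPM in the Ucp1-low and 810 to 966 CPM in the WT libraries. Fabp4, a fatty acid-binding protein of fat cells and capillaries, was at 388, 238 and 555 CPM in ΔPod 1, K2A 1 and K2A 2 and at 134, 22.6 and 40.4 CPM in ΔPod 2, ΔPod 3 and K2A 3, which left it below the 2-fold limit. Car3 differed from the other 7 in WT, with 40.4 to 78.4 CPM there against 14.97, 46.7 and 129 CPM in the Ucp1-high libraries and 4.15, 1.11 and 1.14 CPM in the Ucp1-low ones.

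Enzymes of fatty acid synthesis did not follow the fat markers. None of the 8 tested was past the fold and their median difference was -1.07 on the log2 scale. Fasn, the fatty acid synthase, was at 11.6, 18.7 and 32.2 CPM in the Ucp1-high libraries and at 11.5 CPM in ΔPod 2, 69.2 in ΔPod 3 and 155 in K2A 3. Scd1, a desaturase, was at 353, 423 and 459 CPM in the Ucp1-high libraries and at 321, 1106 and 933 CPM in the Ucp1-low ones. For both genes ΔPod 2 lay at or beside the Ucp1-high libraries and the other Ucp1-low libraries lay above them.

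**Figure D2:**
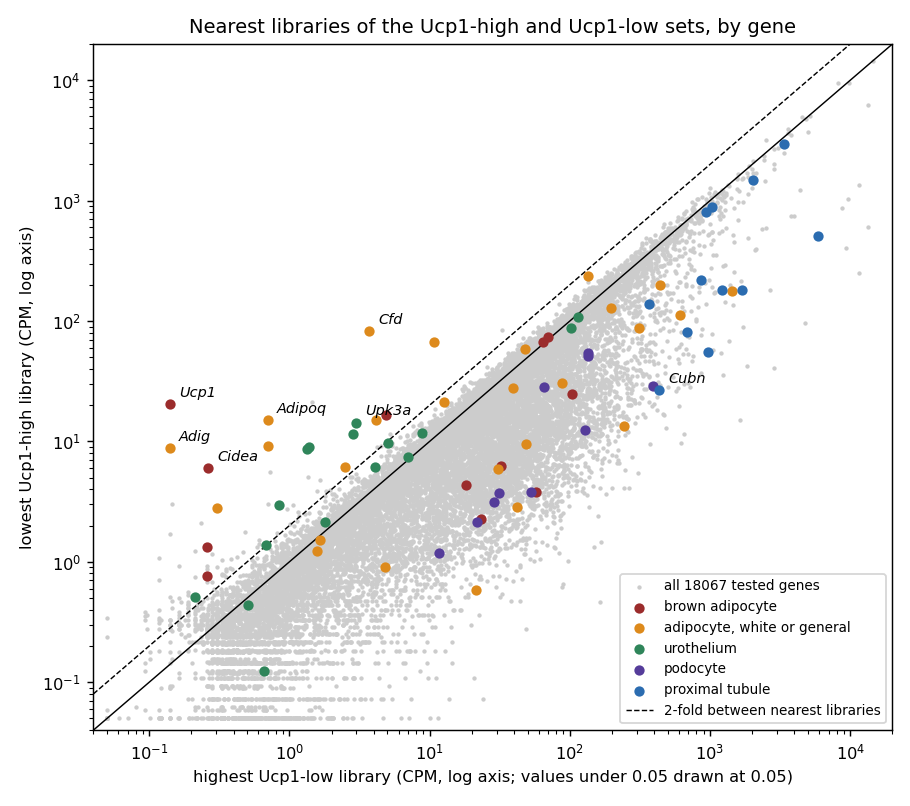
Lowest CPM among the 3 Ucp1-high libraries (vertical) against the highest among the 3 Ucp1-low libraries (horizontal) for each tested gene on log axes, with 5 marker lists coloured. Points above the dashed line are the 106 genes at least 2-fold higher, among them 5 of 12 brown adipocyte, 8 of 26 general adipocyte and 7 of 16 urothelium genes; all 10 podocyte genes lie below the line of equality.

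Urothelium genes were the other group past the fold. Upk3a, the gene of uroplakin 3A (chromosome 15, 85017141 to 85022547), was at 15.5, 14.3 and 19.9 CPM in ΔPod 1, K2A 1 and K2A 2. The Ucp1-low libraries held 2.98 CPM (ΔPod 2), no count (ΔPod 3) and 1.06 CPM (K2A 3), and WT libraries held 0.643 to 2.02 CPM. Upk1b, the tetraspanin that carries uroplakin 3A to the surface, was at 9.11, 8.96 and 10.7 CPM in the Ucp1-high libraries and at 1.38, 0.0403 and 1.36 CPM in ΔPod 2, ΔPod 3 and K2A 3. Upk1a, the tetraspanin partner of uroplakin 2, was at 11.5, 12.1 and 15.9 CPM in the former and at 2.86, 0.443 and 1.89 CPM in the latter. Upk3a, Upk1b and Upk1a thus had counts in all 3 WT libraries, where Ucp1 had none.

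Of 17 urothelium genes 16 could be tested, and 7 were past the fold with higher values, against 0.587% of all tested genes. In all Ucp1-high libraries 12 were higher, against 17.3% of all tested genes, and the median difference was 2.76 on the log2 scale. Besides the 3 named the 7 were the uroplakin gene Upk2, the basal keratin gene Krt5, the transcription factor gene Grhl3 and Ly6d, a surface protein of stratified epithelia. Ly6d was at 17.5, 8.65 and 14.2 CPM in ΔPod 1, K2A 1 and K2A 2 and at most 1.34 CPM in the Ucp1-low libraries. Psca, another surface protein of urothelium, was at 9.66, 37.3 and 50.7 CPM against 5.06, 0.121 and 3.65 CPM and so stayed just under the 2-fold limit. Krt7, which collecting ducts also make, was at 107 to 133 CPM and 93.2 to 114 CPM and overlapped between the sets.

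**Figure D3:**
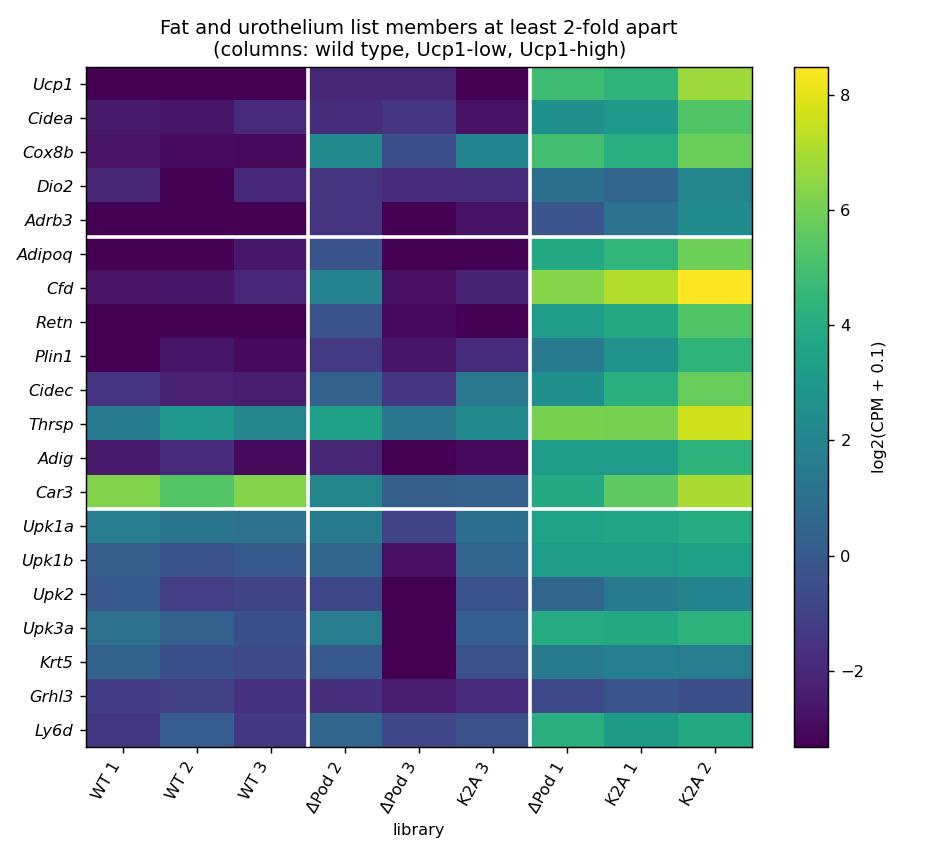
Colour gives log2(CPM + 0.1) of the 5 brown adipocyte, 8 general adipocyte and 7 urothelium genes past the fold (rows, in blocks from the top) in 9 libraries (columns). Car3 is high in wild type too, and ΔPod 3 has the lowest uroplakin values.

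The fat and urothelium genes did not vary together within the Ucp1-high set. K2A 2 held 5.33 times the Ucp1 and 2.64 times the Adipoq of K2A 1, but 1.39 times its Upk3a. Over the 5 brown adipocyte genes the ratio of K2A 2 to K2A 1 ran from 2.33 to 5.33 (median 3.42), over the 8 general adipocyte genes from 2.21 to 3.11 (median 2.76), and over the 7 urothelium genes from 0.803 to 1.64 (median 1.31). The highest Ucp1-high library held 5.33 times the Ucp1 of the lowest, 4.40 times the Cfd, 1.20 times the Upk1b and 1.39 times the Upk3a. Cidea, Adipoq, Cfd and Ucp1 thus spread more widely than Upk3a, Upk1b and Upk1a, whereas Ly6d and Upk2 of the urothelium list ranged about as widely as Adig. Psca of the urothelium list, not past the fold, was also far lower in ΔPod 1 than in K2A 2. The contrast in spread therefore covers the named genes and not the whole urothelium list.

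The proportions among the fat genes differed as well. ΔPod 1 held 1.39 times the Ucp1 and 1.82 times the Cox8b of K2A 1, but 0.676 times its Adipoq, 0.427 times its Plin1 and 0.341 times its Cidec. The ratio of Ucp1 to Adipoq CPM, which is not scaled for transcript length and is read only between libraries, was 1.88 in ΔPod 1, 0.919 in K2A 1 and 1.86 in K2A 2. Adipoq to Cfd stayed between 0.160 and 0.182 in the 3 libraries. Cidea (0.739) and Adrb3 (0.345) did not follow Ucp1 in the ratio of ΔPod 1 to K2A 1, so the brown list was itself uneven. With 1 library for each value there is no replicate check of these ratios.

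**Figure D4:**
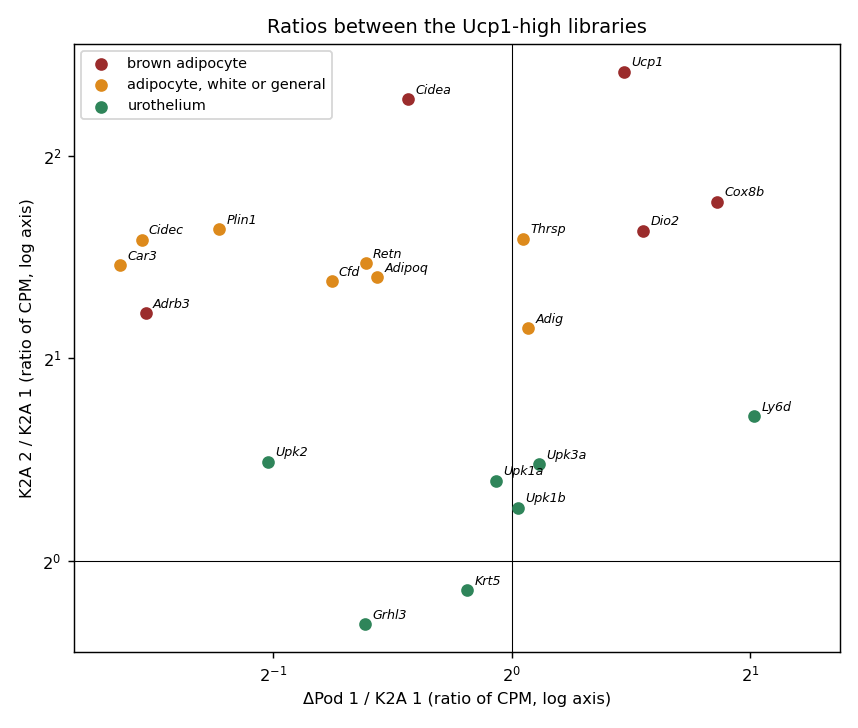
Ratio of CPM in K2A 2 to K2A 1 (vertical) against ΔPod 1 to K2A 1 (horizontal), on log axes, for the 20 fat and urothelium genes past the fold. Urothelium genes lie between 0.803 and 1.64 on the vertical axis, and all fat genes lie above 2.

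Of the 106 higher genes, 13 were on the fat lists, 7 on the urothelium list and 22 on any list, 30 were predicted genes or pseudogenes, and 89 were at 1 CPM or less in every WT library. In 99 of the 106 all Ucp1-high libraries also lay above all WT libraries, as they did in 32.7% of all tested genes; since the 106 were picked for high values in these libraries, nothing is read from that count. Among the unlisted genes with the largest ratios, Sptssb, a small subunit of serine palmitoyltransferase, was at 21.1, 26.1 and 33.6 CPM in ΔPod 1, K2A 1 and K2A 2 and at 1.45, 0.0403 and 0.242 CPM in ΔPod 2, ΔPod 3 and K2A 3. Orm1, an acute-phase glycoprotein, was at 2.97, 1.70 and 4.68 CPM against at most 0.141 CPM. Hp, the haemoglobin-binding haptoglobin, was at 5.57, 7.16 and 11.97 CPM against 0.727, 0.222 and 0.218 CPM. All 3 had their highest value in K2A 2.

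Fxyd3, a regulator of the sodium pump, was at 4.16, 3.04 and 4.36 CPM in the Ucp1-high libraries and at most 0.703 CPM in the Ucp1-low ones. Apoc1, an apolipoprotein, was at 6.22, 5.02 and 12.4 CPM in the former and at most 1.36 CPM in the latter. H2-Q10, a class I histocompatibility gene whose counts may be shared with close relatives, was at 1.77, 2.11 and 3.26 CPM against at most 0.484 CPM. Ankef1 and Pabpn1l had ratios of 8.99 and 4.11 between the nearest libraries of the sets. All of these were below 1 CPM in WT.

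Other tissues that border the kidney were looked for by their own markers, beside the 0.587% of all tested genes past the fold with higher values. Of 12 tested smooth muscle genes 1 was past the fold, Actg2, the enteric smooth muscle actin, with 0.868, 1.27 and 1.75 CPM in ΔPod 1, K2A 1 and K2A 2 and 0.352, 0.0202 and 0.121 CPM in ΔPod 2, ΔPod 3 and K2A 3. Tagln, an actin-binding protein of smooth muscle, was at 300, 141 and 137 CPM in the former and at 123, 41.5 and 23.0 CPM in the latter, whereas the muscle myosin gene Myh11 was at 2.10, 3.29 and 3.05 CPM and at 3.66, 28.8 and 27.6 CPM. Tagln and Myh11 thus differed in opposite directions. Of the 12 smooth muscle genes 4 were higher and 2 lower in all Ucp1-high libraries, against 17.3% and 19.6% of all tested genes. The median difference of the list was -0.40 on the log2 scale. Of 5 tested mesothelium genes 1 was past the fold, the keratin gene Krt19, which urothelium also makes, at 8.97, 12.5 and 14.5 CPM against 4.22, 0.806 and 3.15 CPM. The defining mesothelium gene Msln was at 1.74, 1.33 and 1.72 CPM and at 0.985, 0.0202 and 0.750 CPM. Of the 5 mesothelium genes 3 were higher in all Ucp1-high libraries and 0 lower, against 17.3% and 19.6% of all tested genes. Their median difference was 2.06 on the log2 scale.

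Fibroblast genes had no member past the fold among 10 tested. In all Ucp1-high libraries 3 were higher and 1 was lower, against 17.3% and 19.6% of all tested genes. The median difference of the list was 1.39 on the log2 scale. Dcn was at 80.6, 72.8 and 64.2 CPM in ΔPod 1, K2A 1 and K2A 2. It was at 44.9, 15.2 and 17.5 CPM in ΔPod 2, ΔPod 3 and K2A 3. Dpt, a matrix protein of loose connective tissue, was at 15.7, 14.3 and 13.9 CPM in the Ucp1-high libraries and at 10.1 CPM in ΔPod 2, 0.967 in ΔPod 3 and 0.847 in K2A 3. Dpt in ΔPod 2 was above the 1.24 to 2.38 CPM of WT. Clec3b, the gene of tetranectin, was at 1.302 CPM in ΔPod 1 and 1.38 CPM in ΔPod 2, but at 5.39 and 5.57 CPM in K2A 1 and K2A 2. For Dpt and Clec3b ΔPod 2 lay nearer to ΔPod 1 than to the other Ucp1-low libraries. The list was uneven: Col1a1, a chain of fibrillar collagen, was at 2.17, 6.14 and 3.76 CPM in ΔPod 1, K2A 1 and K2A 2 and at 4.67, 17.5 and 4.82 CPM in ΔPod 2, ΔPod 3 and K2A 3, and Col1a2 had a difference of -0.85 on the log2 scale.

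Defining markers of adrenal gland and exocrine pancreas were at or near 0. The adrenal enzyme genes Cyp11b1 and Cyp21a1 had no count in any library, and Th and Dbh, enzymes of catecholamine synthesis, had at most 0.0310 CPM. Some other members of these lists were higher in all Ucp1-high libraries, though not past the fold. Akr1b7 of the adrenal cortex list was at 4.96 to 7.09 CPM against at most 4.64 CPM. Of the adrenal medulla and sympathetic neuron list, Uchl1 was at 14.3 to 20.7 CPM against at most 8.67 CPM. Stmn2 was at 2.43 to 3.07 CPM against at most 2.02 CPM. Star and Npy overlapped between the sets. The acinar genes Prss2, Try4, Cela2a, Cela3b and Pnlip had no count in any library. Of 9 tested T cell and 7 tested B cell genes none was past the fold, nor was any of 8 macrophage genes. Sums were also taken over the markers at 1 CPM or less in every WT library. Brown adipocyte genes reached 68.1, 51.2 and 222 CPM in ΔPod 1, K2A 1 and K2A 2. They reached 6.07, 1.31 and 4.45 CPM in ΔPod 2, ΔPod 3 and K2A 3. Adrenal cortex genes summed to at most 1.04 CPM in any library. Smooth muscle sums were 2.28, 2.32 and 2.96 CPM in ΔPod 1, K2A 1 and K2A 2. In the Ucp1-low libraries they were at most 1.102 CPM. Mesothelium sums were 2.57, 1.92 and 2.13 CPM against at most 1.34 CPM. Smooth muscle and mesothelium sums thus did not overlap between the sets.

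Among the remaining lists no gene was past the fold with higher values. The Schwann cell list had 9 tested members and 4 that were higher in all Ucp1-high libraries, against 17.3% of all tested genes. Its median difference was 0.37 on the log2 scale. Erythroid genes had 5 tested members, and Hbb-bs, an adult beta globin, was at 862 CPM in ΔPod 1, 428 in ΔPod 2, 319 in K2A 1, 318 in K2A 2, 87.6 in ΔPod 3 and 379 in K2A 3, so the sets overlapped. The median differences of the lymphatic, mast cell and neutrophil, and liver lists were -0.01, 0.05 and 0.03 on the log2 scale.

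**Figure D5:**
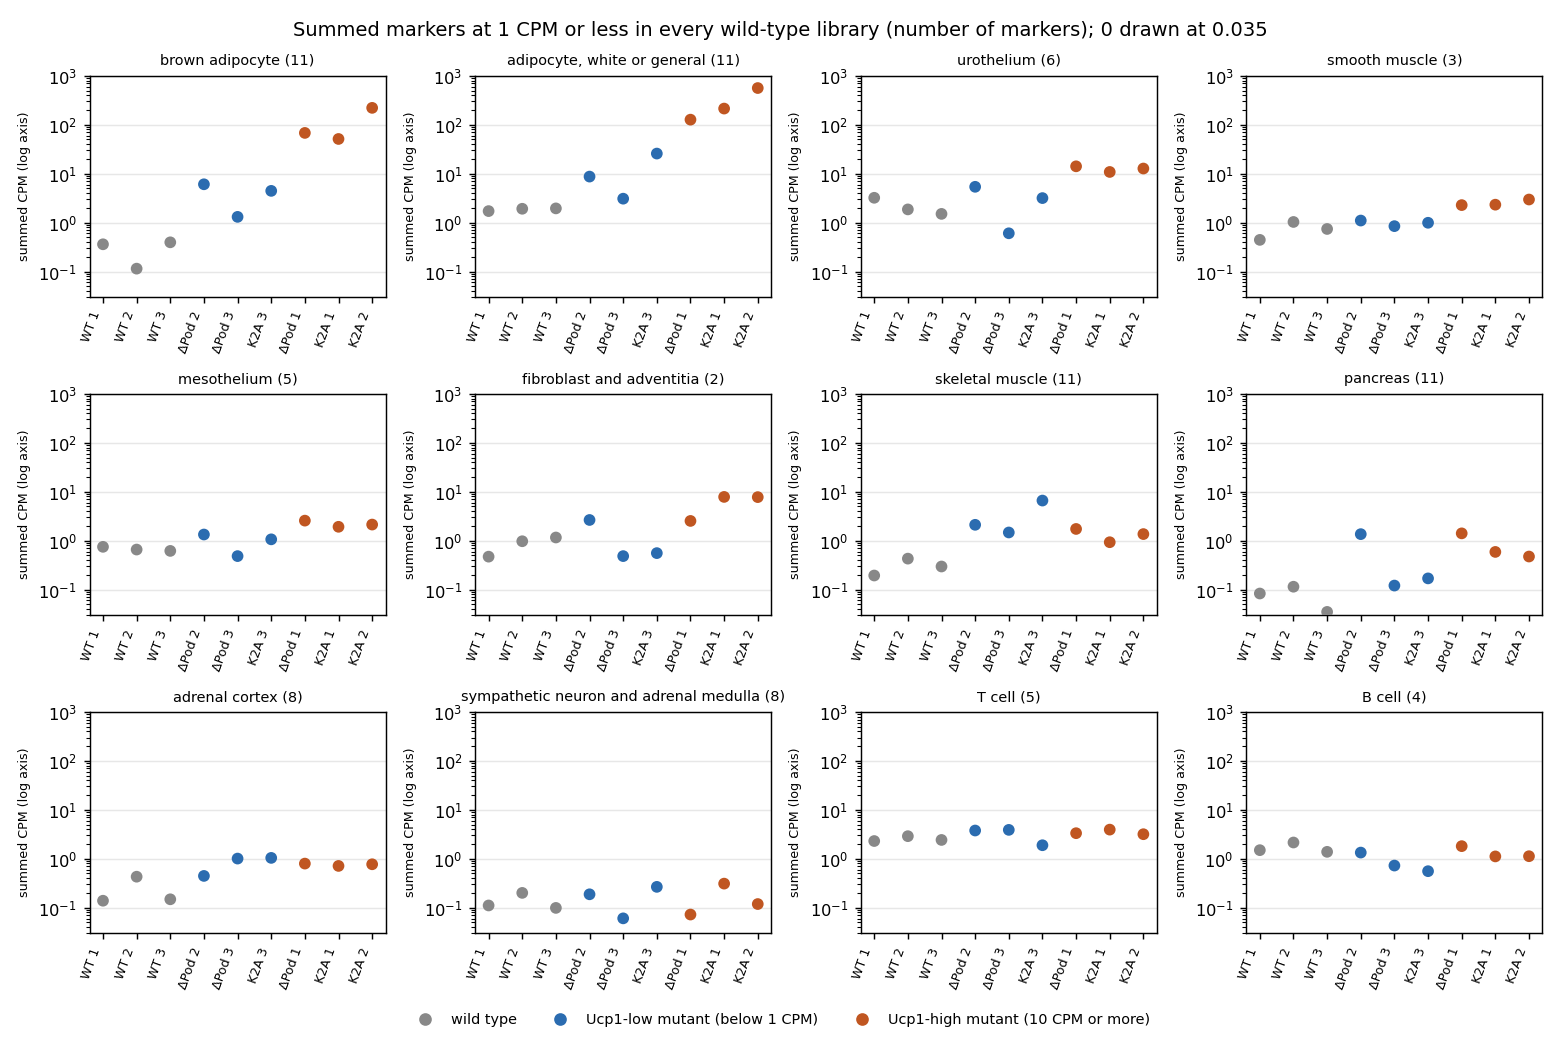
Summed CPM (log axis) of the markers of 12 tissues that were at 1 CPM or less in every wild-type library, with the number of markers in brackets, for 9 libraries. Fat sums reach 563 CPM in the Ucp1-high libraries. The adrenal cortex, T cell and B cell sums of the Ucp1-high libraries overlap those of the Ucp1-low ones. The smooth muscle and mesothelium sums are low but higher in every Ucp1-high library than in any Ucp1-low one.

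Kidney parenchyma showed the reverse pattern for many long transcripts. Of 10 podocyte genes none was past the fold and 5 were lower in all Ucp1-high libraries, against 19.6% of all tested genes. The median difference of the podocyte genes was -1.79 on the log2 scale. Nphs1, the gene of nephrin of the slit diaphragm, was at 3.83, 9.73 and 8.33 CPM in ΔPod 1, K2A 1 and K2A 2 and at 8.44, 53.3 and 40.9 CPM in ΔPod 2, ΔPod 3 and K2A 3, so ΔPod 2 lay within the Ucp1-high range. The 12 proximal tubule genes had a median difference of -1.13, and 1 was past the fold with lower values, against 0.271% of all tested genes. This was Cubn, the gene of the endocytic receptor cubilin, at 37.4, 26.8 and 28.2 CPM in the Ucp1-high libraries and at 79.8, 435 and 431 CPM in the Ucp1-low ones. Miox of the same list, an enzyme that catabolises inositol, was at 2931, 2951 and 3851 CPM against 2530, 3371 and 1221 CPM. Not all kidney lists were lower, with median differences of 0.25 for thick ascending limb and 0.72 for thin limb and papilla genes. The medians were -1.09 for distal convoluted tubule, -0.48 for collecting duct, -1.26 for intercalated cell and -1.04 for kidney endothelium genes.

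The 49 lower genes were long. Their median exon length was 6962 bases, against 1581 bases for the 106 higher genes and 3695 bases for all tested genes, where 95.9 to 99.1% of the genes had a length. Celsr1, a large atypical cadherin, was at 1.45, 2.14 and 2.31 CPM in ΔPod 1, K2A 1 and K2A 2 and at 6.28, 56.3 and 50.0 CPM in ΔPod 2, ΔPod 3 and K2A 3. Col4a3, a chain of glomerular basement membrane collagen, was at 15.2, 16.2 and 14.1 CPM against 37.4, 180 and 218 CPM. Abcc3, an organic anion exporter, was at 19.6, 19.9 and 17.3 CPM against 52.6, 59.9 and 119 CPM, and at 0.830 to 2.13 CPM in WT. The values of ΔPod 2 lay nearest to the Ucp1-high set for Celsr1, Col4a3 and Cubn.

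Further genes with large ratios in that direction were Plagl1 (2.85), an imprinted zinc finger factor, Cux2 (2.57), a homeobox gene, Bicra (2.47), of chromatin remodelling complexes, and Nfatc2 (2.35), a calcium-regulated transcription factor, each with the ratio of the lowest Ucp1-low to the highest Ucp1-high library. Syne3, Zmiz1, Setd1b, Tenm4, Nr4a1 and Zfhx2 had ratios of 2.06 to 2.34. In 40 of the 49 genes WT 2, the WT library with the highest ribosomal share, also lay above all Ucp1-high libraries, as it did in 35.6% of all tested genes; the 49 were picked for low values in these libraries. The higher and the lower genes were picked for not overlapping between the sets, so nothing is read from their lengths differing with the sets. The ribosomal share overlapped, with ΔPod 2 (3.86%) inside the Ucp1-high range. The part of length and ribosomal share in the higher and the lower genes was not tested.

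The number of genes past the fold depended on ΔPod 2. With ΔPod 2 left out, 3094 genes were higher and 3145 lower, in place of 106 and 49. With ΔPod 2 as the only Ucp1-low library, 184 were higher and 75 lower. Of the brown adipocyte, general adipocyte and urothelium lists 5, 9 and 7 members were past the fold against ΔPod 2 alone, and 6, 10 and 11 without it. The ribosomal share of ΔPod 2 (3.86%) lay between those of K2A 2 (3.51%) and ΔPod 1 (7.23%).

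The labelled genotype groups, which the division on Ucp1 did not define, could be tested. In the edgeR quasi-likelihood test over all 9 libraries, 178 of 18067 genes (0.985%) passed at a false discovery rate of 0.05 for ΔPod, with 0.399% of the genes higher than in WT and 0.587% lower. For K2A 153 genes passed (0.847%), with 0.321% higher and 0.526% lower. None of the 106 higher or 49 lower genes was among them for ΔPod or for K2A. The fold rule picked genes that differ between libraries of the same genotype, which widens the spread within a group. This absence was therefore partly fixed in advance, and at shares of 0.985% and 0.847% few calls could be looked for among them. Of the 106, 17 (ΔPod) and 48 (K2A) had an unadjusted p below 0.05 in edgeR, against 13.8% and 10.6% of all tested genes. DESeq2 called 9 and 27 of the 106, and 998 and 909 of all 18067 tested genes. The 106 were picked for high values in ΔPod 1, K2A 1 and K2A 2, which belong to the groups tested, so nothing is read from these counts. Of the 49, 7 and 3 had an unadjusted p below 0.05, and DESeq2 called 4 and 2. With the replicate number as a block edgeR called 2 and 5 of the 106, and 1 and 1 of the 49, among 270 and 232 calls over all tested genes. The 49 were picked for low values in the Ucp1-high libraries, so their counts are likewise not read. Cfd had a log2 fold change of 8.29 in ΔPod (SE 3.02, adjusted p = 0.309, higher than every WT library in 2 of 3) and of 10.83 in K2A (SE 3.28, adjusted p = 0.236, likewise 2 of 3). Ucp1 had adjusted p = 0.358 and 0.357, with all WT libraries at 0, and Upk3a adjusted p = 0.498 and 0.581. Of the fat and urothelium list members edgeR called only Cd36, a fatty acid transporter, which fell in both (log2 fold change -2.16, SE 0.34, adjusted p = 0.0287, in ΔPod and -2.06, SE 0.34, adjusted p = 0.0338, in K2A), and Lpl, which fell in K2A (-1.83, SE 0.29, adjusted p = 0.0291).

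Both comparisons share the WT libraries. When the 3 Ucp1-high libraries were left out, edgeR called 47 genes in ΔPod against WT, of which 43 were among the 178, and 4 in K2A against WT, of which 2 were among the 153. The K2A group was then the single library K2A 3, which is assumed to vary like the other groups. Leaving out 1 library gave at least 23 (WT 3) and at most 411 calls (ΔPod 3) for ΔPod, with 91 when this was ΔPod 1. For K2A it gave at least 3 (WT 1) and at most 173 (K2A 3). Leaving out 1 library and leaving out 3 change the group sizes unequally, and the part of the Ucp1-high libraries in the calls was not tested.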

How the data were processed

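Polyadenylated RNA of 9 whole-kidney samples was measured, 3 each of WT, ΔPod and K2A, with ScriptSeq v2 libraries per the labels' protocols. The authors deposited raw read counts by gene symbol, 1 table for each mutant with the WT libraries in both. The submitters' processing notes list featureCounts 2.0.1, STAR 2.7.3a, Trim Galore 0.6.3 and the build mm10, without roles. Strand setting and handling of shared reads are not given in the sources used here, so near-identical copies and antisense partners are uncertain. Of 52163 shared symbols, 3 with differing WT counts were left out. Positions and exon lengths came from GENCODE vM21 (mm10).

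Counts were filtered with filterByExpr (18067 genes kept) and scaled to CPM with TMM factors in edgeR 4.0.16 under R 4.3.3. The Ucp1-high and Ucp1-low sets were formed by script at 10 and 1 CPM. CPM below 3 counts in a library was set to 3 counts in ratios, a limit that covers counting error only. Genotypes were tested with the edgeR quasi-likelihood test, Benjamini-Hochberg adjusted, which was tested on simulated data. Log2 differences between sets used a prior count of 2. DESeq2 1.42.0 was an alternative, as were other scalings, filters, folds, a replicate block and leaving out libraries. The members and gene lists were chosen with earlier results of these data known. Named genes were Ybx1, the 5 markers, by ratio the top 25 higher and top 15 lower genes at 1 CPM or more, predicted genes left out, and up to 6 members of each list. Tagln, Msln, Dpt, Clec3b, Psca, Krt7, Elovl3, Fabp4 and other list members outside this rule were chosen after their values were seen.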

Additional observations from a re-analysis of the deposited data

How the results depend on the processing

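Main counts were 106 genes higher and 49 lower past the fold, and 178 and 153 genes called in ΔPod and K2A against WT. The higher count was 26 at a fold of 4, 3121 with any gap, 47 with a filter of 1 CPM in 3 libraries, 1647 when the fold was required only within each genotype and 184 against ΔPod 2 alone. The lower count was 1, 3547, 32, 1693 and 75 under the same settings and 98 with library size alone. Brown adipocyte genes past the fold numbered 3, and urothelium genes 4, at a fold of 4, and urothelium genes 12 with any gap. Leaving out 1 library gave 120 to 3094 higher genes (the most without ΔPod 2), 52 to 3145 lower genes (likewise), 5 to 6 brown adipocyte, 8 to 10 general adipocyte and 7 to 11 urothelium genes. DESeq2 called 998 genes in ΔPod and 909 in K2A, the 6 libraries compared alone gave 54 in ΔPod, and without the Ucp1-high libraries the counts were 47 and 4. There the log2 fold changes of Adipoq, Cidea and Upk3a in K2A against WT turned to -3.27, -1.07 and -0.23, none called. Leaving out 1 library gave 23 to 411 calls in ΔPod and 3 to 173 in K2A. The cause of these shifts was not tested. With the replicate block 270 and 232 genes were called, of which 2 and 5 were among the 106 and 1 and 1 among the 49. The deviations of same-numbered libraries from their group means on the log2 scale correlated at 0.40 to 0.85 in 7 of 9 pairs. Between WT 1 and ΔPod 1 or K2A 1 these deviations correlated at -0.62 and -0.54, so the numbers were not taken to pair mutants with WT. The libraries themselves, without subtraction of the means, correlated at 0.770 or more. RLE and upper quartile factors kept both counts past the fold within 1.5 times. With 3 libraries a set, these counts describe the libraries at hand.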

Other observations

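Slc14a2, the urea transporter gene of the inner medulla, had no count in ΔPod 3, which allows at most 0.0605 CPM, and 31.6 to 138 CPM in the other 8 libraries. It was the only gene without a count in 1 library and at 5 CPM or more in all others. Upk3a, Upk2, Krt5 and Krt15 also had no count in ΔPod 3. The collecting duct water channel gene Aqp2, which cortex and medulla both transcribe, was at 321 CPM there, within the 190 to 654 CPM of the other libraries. Fst, the gene of follistatin, was at 0.141 CPM in ΔPod 3 and at 3.68 to 17.3 CPM in the other 8. These genes were picked after their values were seen.

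Medullary genes also differed within the Ucp1-high set. Cryab, a small heat shock protein of the medulla, was at 331 and 422 CPM in K2A 1 and K2A 2, at 90.1 CPM in ΔPod 1 and at 50.9 to 127 CPM in the Ucp1-low and WT libraries. Akr1b3, the aldose reductase that makes sorbitol in the papilla, was at 80.6 and 131 CPM in K2A 1 and K2A 2, at 20.1 CPM in ΔPod 1 and at 7.64 to 26.8 CPM elsewhere.

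K2A 3, in which Ucp1, Adipoq and Retn had no count, held more of some lipid genes than any other library. Plin4, a droplet coat protein, was at 21.2 CPM there and at 0.258 to 2.96 CPM in the other 8 libraries. Plin5, a perilipin of oxidative tissues, was at 18.3 CPM against at most 8.86 CPM, and Gpd1, glycerol-3-phosphate dehydrogenase, at 1432 CPM against at most 567 CPM. Cidec was at 2.49 CPM in K2A 3, above the 0.0988 to 1.13 CPM of the other Ucp1-low and WT libraries. Myh1, a fast skeletal muscle myosin gene, was at 6.22 CPM in K2A 3, 1.36 in ΔPod 2 and 1.17 in ΔPod 3, at 0 to 0.474 CPM in the Ucp1-high libraries and at 0 in WT, while the muscle actin gene Acta1 was at most 0.0859 CPM in all libraries.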
